A study of Mus musculus with 16 samples.

Results

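The clustered protocadherins are the cadherin-like adhesion genes of the alpha, beta and gamma clusters, which lie in that order along the same mouse chromosome. Members were chosen by gene symbol and not by value, as every gene whose symbol begins with Pcdha, Pcdhb, Pcdhga, Pcdhgb, Pcdhgc or Pcdhac followed by a number. Of the 23609 genes in the expression table, 51 were members, namely 7 of the 14 alpha genes, 22 of 22 beta genes and 22 of 22 gamma genes listed in the name table. The alpha genes *Pcdha1*, *Pcdha2*, *Pcdha3*, *Pcdha5*, *Pcdha8*, *Pcdha12* and *Pcdhac2* had no row in the table and were not analysed here. The symbol *Pcdha11* belonged to 2 gene IDs, which are given separately below by ID.

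The study measured total RNA from primary mammary tumors of mice carrying MMTV-PyMT, a transgene in which the MMTV promoter drives polyoma middle T antigen in the mammary epithelium, so that both groups carry it. The wildtype group had intact *Resf1*, and the gene trap group was heterozygous (Resf1 +/-) for a lentiviral insertion in the opening exon that yields an EGFP-Cre fusion and a truncated *Resf1* message. The animals were littermates from a cross of the gene trap strain, on a C57BL/6 background, with FVB mice bearing the transgene. Values came from 5 wildtype and 5 gene trap tumors, sequenced as bulk tissue. The tumors are numbered as replicates and were taken here as coming from a different animal each. On that reading p-values reflect the spread between animals. The insertion was inherited and so not limited to the tumor cells, and whether the tumors kept the intact *Resf1* allele was not examined here. Mice of the gene trap cross were examined at a humane endpoint, and ages are not given in the labels.

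Each alpha and gamma gene begins with its own large exon, which encodes the extracellular cadherin repeats and has its own promoter, and is spliced to a few constant exons that encode a cytoplasmic tail shared by the whole cluster. Beta genes consist of their large exon only and lack that tail. Single neurons choose a few of these promoters, with the help of CTCF and cohesin, and the resulting combinations of proteins bind the same combination on other cells, which allows a neuron to recognise its own branches. The histone methyltransferase SETDB1, which deposits H3K9 trimethylation, and the chromatin protein SMCHD1 are known to keep many of these promoters silent, and RESF1 is known as a partner of SETDB1 in the silencing of retroelements.

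Transcripts of the beta and gamma clusters were measured in every tumor, and those of the alpha cluster were scarce. Values are estimated counts that the authors normalized by the median ratio method, and a summed level below is the sum of these values over genes. The whole family made up between 0.0203% and 0.0326% of the column totals, and of the members' own summed level 58.4% came from gamma genes, 40.6% from beta genes and 0.992% from alpha genes. On the scale of level per kilobase of transcript, the median gene had 46.5 in the gamma cluster, 37.9 in the beta cluster and 2.21 in the alpha cluster. *Pcdhgc3* stood highest on this scale at 200.3, followed by the beta gene *Pcdhb17* at 116 and the gamma genes *Pcdhgb6* at 88.5, *Pcdhgb5* at 85.2 and *Pcdhgb1* at 83.1. Mean values over the 10 tumors ran from 2.40 to 939 in the gamma cluster, from 10.5 to 540 in the beta cluster and from 3.19 to 27.9 in the alpha cluster. The plot of members by tumor shows this order, together with the wide scatter of the low genes.

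**Figure D1:**
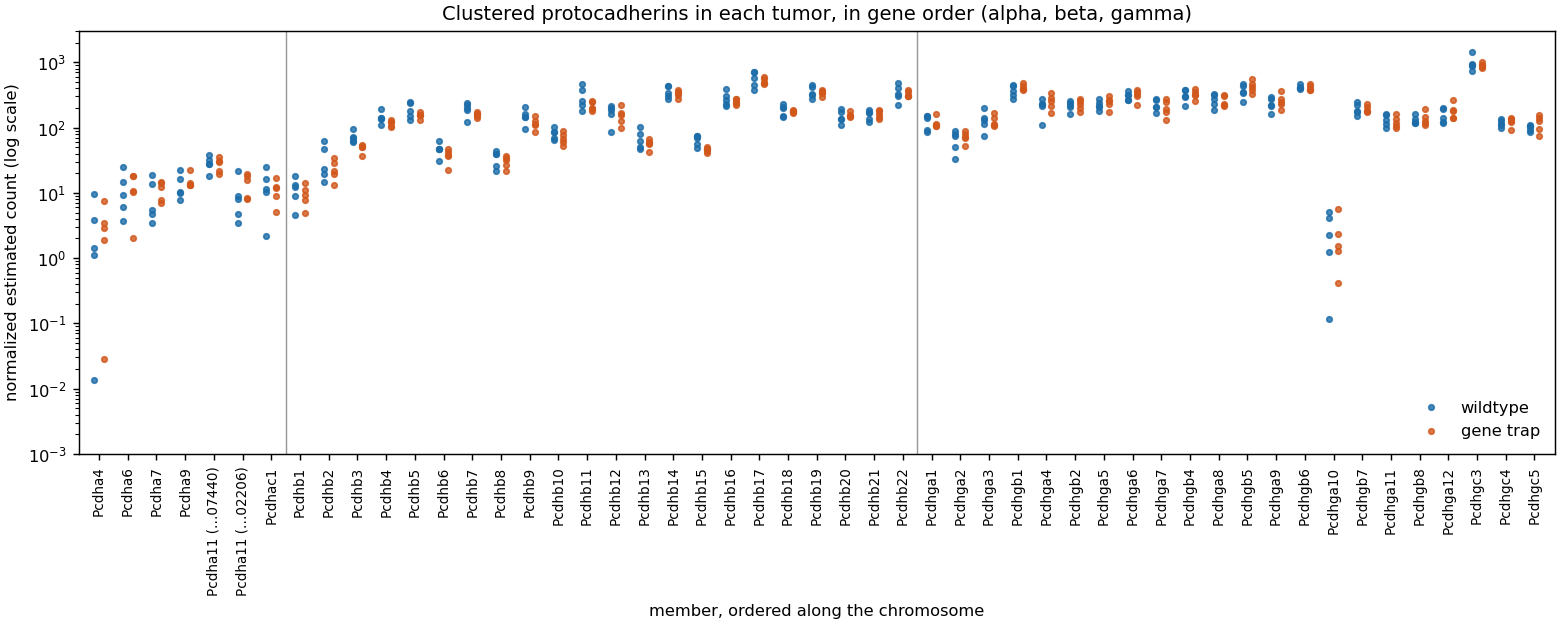
Normalized estimated count of each of the 51 members (y axis, log scale) in gene order along the chromosome (x axis), with 1 point per tumor, wildtype in blue and gene trap in orange. Vertical lines part the alpha, beta and gamma clusters. Most beta and gamma genes lie well above the alpha genes, *Pcdhgc3* is the highest, and the groups overlap for nearly every gene.

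The annotation showed which bases the members share by position. In GENCODE M21, the 7 alpha genes had 4 exons each and shared 2860 bases, which is 52.8% to 53.6% of their transcripts, and the gamma genes had 4 exons and shared 2116 to 2119 bases, or 41.7% to 45.9%. Reads from these constant exons were divided among the genes by estimation, so the level of a single alpha or gamma gene carries an uncertainty of its own, whereas the sum over a cluster does not depend on the division among its listed genes. The 22 beta genes had 1 exon each, and only *Pcdhb21* and *Pcdhb22* overlapped each other. Positions were compared and sequences were not. Whether reads were also divided by estimation among beta genes of similar sequence was therefore not examined. Another 9 members overlapped an antisense gene of the table. The strand setting of the counting is not given in the sources used here, so reads of those members and of their antisense partners cannot be told apart. The log2 fold change of gene trap over wildtype was -0.50 for *Gm37446*, antisense to *Pcdhb12* (-0.12), 0.22 for *Gm26672*, antisense to 4 gamma genes, -0.18 for *Gm37165*, antisense to *Pcdhga7* and *Pcdhga8*, and -0.05 for *Gm10545*, antisense to *Pcdha11* (ENSMUSG00000102206). Before adjustment *Gm37446* had a limma p of 0.0423, and the other antisense genes had a limma p of 0.333 or more. The mean level of *Gm37446* was 96.3, beside 162 for *Pcdhb12*.

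*Resf1* itself was 14.2% lower in the gene trap tumors by the fold change of log values. Its values were 4215, 4397, 3881, 4487 and 3517 in wildtype tumors 1 to 5 and 4029, 3066, 3686, 3392 and 3409 in gene trap tumors 1 to 5, so the groups overlapped. The log2 fold change was -0.22 (SE 0.09; limma p = 0.0313, adjusted p = 0.9997; exact two-sided permutation p = 0.0635). The epithelial markers of a mammary tumor were present, with *Epcam* between 19190 and 25278 and *Krt8* between 16809 and 24801. Along the leading principal component, which held 31.1% of the variance, gene trap replicate 2 scored 91.8 and the other 9 tumors between -18.6 and -4.78. With that tumor left out, the median log2 fold change was -0.22 for beta, 0.07 for gamma and -0.09 for alpha genes.

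No clustered protocadherin passed the test between the groups after adjustment. Of the 51 members, 49 reached the required mean value of 10 across the tumors and were tested, all in 1 limma fit of log2(value + 1) over 21034 genes. With an adjusted p under 0.05 there were 0 members, as 0.0% of all tested genes passed, and the smallest adjusted p among members was 0.9997. At an unadjusted p under 0.05, 2 members were lower in the gene trap tumors, *Pcdhb3* and *Pcdhb15*, against 0.956% of all tested genes, and 0 were higher, against 1.32%. *Pcdhb3* was the only member whose groups did not overlap. Lower values without overlap were found in 0.261% of all tested genes, and higher values without overlap in 0.266% and in 0 members. The 2 members below the filter were *Pcdha4*, with a mean of 3.19, and *Pcdhga10*, with a mean of 2.40, and those just above it were *Pcdha7* at 10.2 and *Pcdhb1* at 10.5.

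The clusters did not share a direction. The fitted difference was below 0 in 29 of the 49 tested members and above 0 in 20, beside 48.6% below 0 among all tested genes, and the members' median log2 fold change was -0.03, beside 0.00 for all genes with quartiles of -0.09 and 0.10. In the beta cluster 20 of 22 genes lay below 0, with a median of -0.22 and a range from -0.55 to 0.08. In the gamma cluster 7 of 21 tested genes lay below 0, with a median of 0.06 and a range from -0.16 to 0.27. In the alpha cluster 2 of 6 tested genes lay below 0, with a median of 0.14. The 95% interval of the difference included 0 for 47 of the 49 members, and the genes of a cluster were measured in the same tumors and are not replicates of one another. Values of the beta genes moved together across tumors, so that single tumors weighed on the cluster's median, which was -0.08 without wildtype replicate 1 and -0.13 without gene trap replicate 4. The gamma median was -0.01 without wildtype replicate 2 and 0.01 without gene trap replicate 1.

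**Figure D2:**
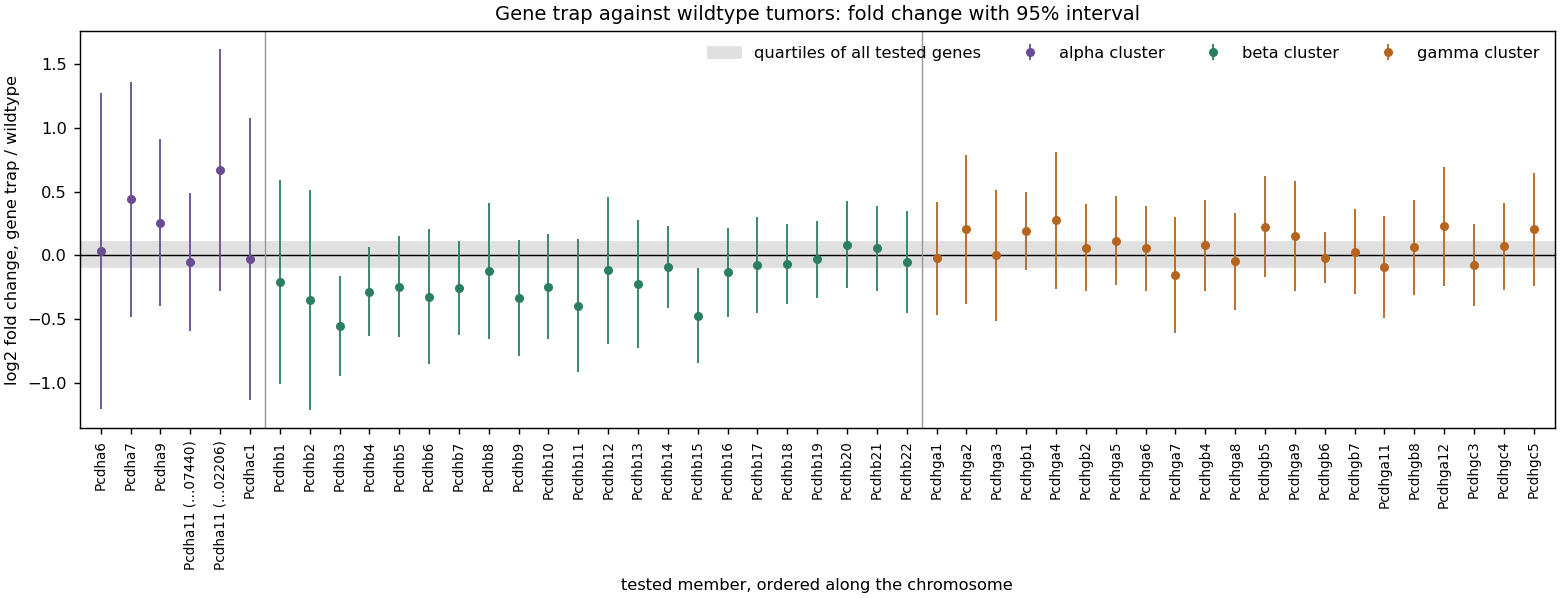
Log2 fold change of gene trap over wildtype tumors (y axis) for the 49 tested members in gene order (x axis), with bars for the 95% interval from limma and a grey band for the quartiles of all 21034 tested genes (-0.09 to 0.10). In the beta cluster 20 of 22 points lie below 0. The intervals of *Pcdhb3* and *Pcdhb15* alone exclude 0, without adjustment for the number of genes.

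The summed levels, which do not depend on how reads were divided among the listed genes of a cluster, overlapped between the groups in each cluster. Any reads assigned to the 7 alpha genes without a row are not in the alpha sum. For the beta cluster the sums were 4975, 3228, 3771, 4819 and 3002 in the wildtype tumors and 3579, 3570, 3473, 3187 and 3719 in the gene trap tumors. The mean was 3959 ± 902 (SD, n = 5) in wildtype and 3506 ± 198 (SD, n = 5) in gene trap tumors, which is 88.5% of wildtype. Wildtype replicates 1 and 4 stood above all other tumors, while wildtype replicate 5 lay below all gene trap tumors and wildtype replicate 2 below all but gene trap replicate 4. The coefficient of variation was 22.8% among wildtype and 5.66% among gene trap tumors. Without wildtype replicate 1 the gene trap mean was 94.6% of wildtype, and without wildtype replicate 5 it was 83.5%.

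For the gamma cluster the sums were 5832, 4275, 4905, 5890 and 5480 in wildtype and 6363, 5125, 6007, 4841 and 4953 in gene trap tumors. The means of 5276 ± 683 and 5458 ± 683 (SD, n = 5 each) differed by less than the spread within either group, with gene trap at 103% of wildtype. For the alpha cluster the sums were 74.9, 41.2, 76.4, 155 and 95.2 in wildtype and 55.8, 115, 104, 73.4 and 122 in gene trap tumors. The gene trap mean of 93.9 ± 28.1 (SD, n = 5) was 106% of the wildtype mean of 88.5 ± 41.8 (SD, n = 5), well within the spread. Wildtype replicate 4 held the highest alpha sum, and wildtype replicate 2 the lowest sum of both the alpha and the gamma cluster.

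**Figure D3:**
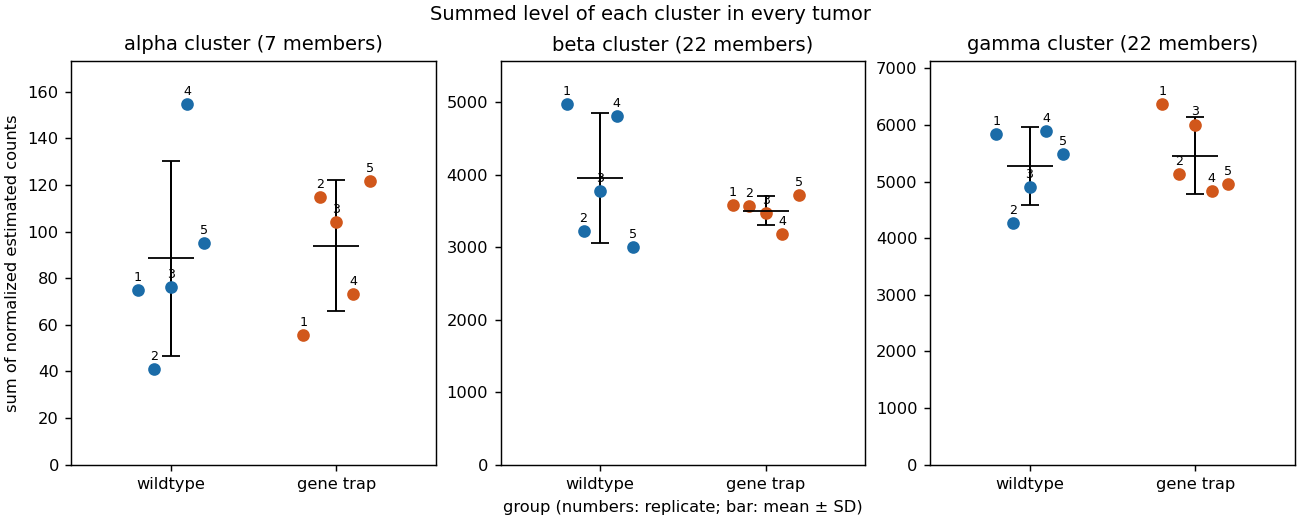
Sum of normalized estimated counts (y axis) over the members of the alpha, beta and gamma clusters in each tumor, with the replicate number beside each point and a bar for the mean ± SD of 5 tumors. In the beta cluster wildtype replicates 1, 3 and 4 (4975, 3771 and 4819) stand above the gene trap tumors, which lie between 3187 and 3719. Wildtype replicate 5 (3002) lies below them. In the other clusters the groups overlap throughout.

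The ratio of the cluster sums varied between tumors. The beta sum was 0.853, 0.755, 0.769, 0.818 and 0.548 of the gamma sum in the wildtype tumors and 0.562, 0.697, 0.578, 0.658 and 0.751 of it in the gene trap tumors. Wildtype replicate 5 had the lowest ratio of all tumors, so this ratio overlapped between the groups as well. Within the beta cluster wildtype replicate 1 had the highest value for 13 of 22 genes and wildtype replicate 4 for 5, and gene trap replicate 4 had the lowest for 7. Within the gamma cluster gene trap replicate 1 had the highest value for 11 of 22 genes and wildtype replicate 2 the lowest for 10. In the alpha cluster wildtype replicate 4 had the highest value for 5 of 7 genes. Many genes of a cluster thus had their highest or lowest value in the same tumor, as the map of deviations shows.

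**Figure D4:**
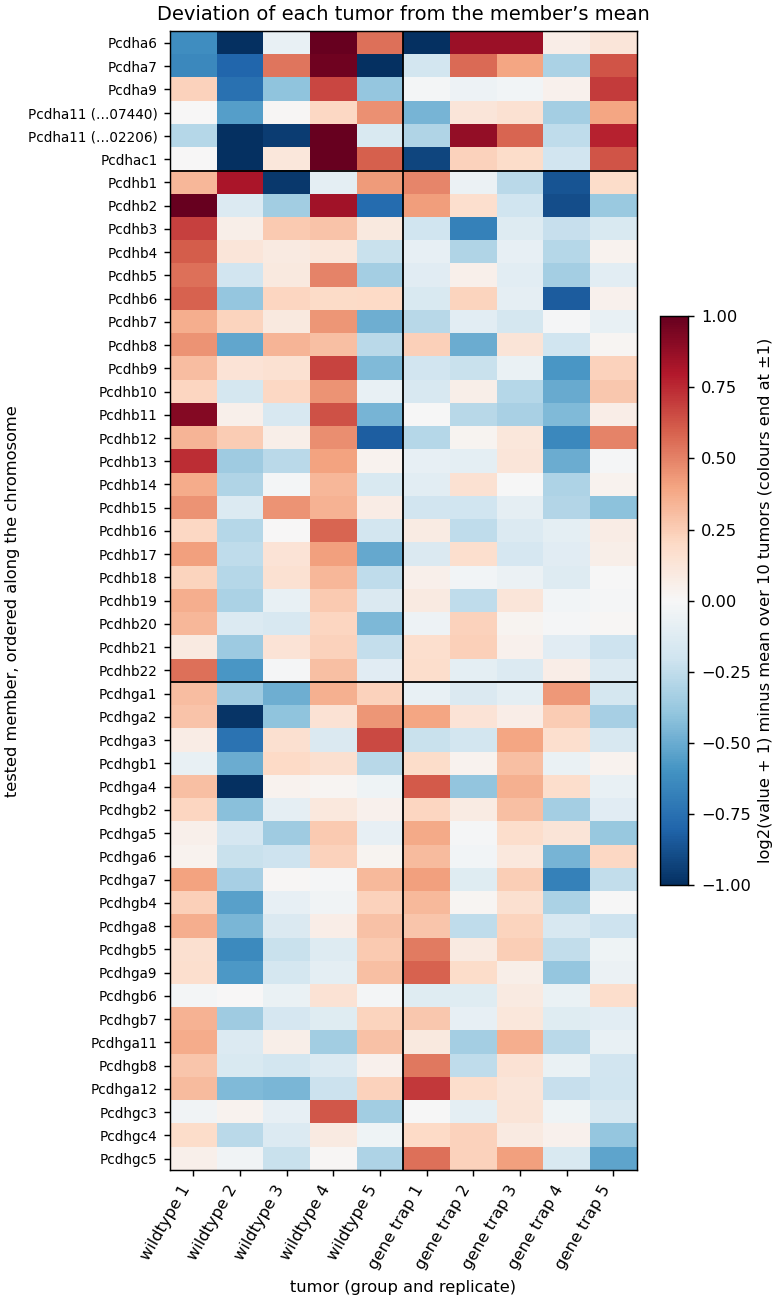
Deviation of log2(value + 1) in each tumor (x axis, group and replicate) from the mean over the 10 tumors, for the 49 tested members in gene order (y axis), red for higher and blue for lower. Horizontal lines part the clusters. Wildtype replicates 1 and 4 are red through most of the beta cluster, and gene trap replicate 1 through most of the gamma cluster.

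*Pcdhb3* (ENSMUSG00000045498) had the lowest log2 fold change of the tested members. Its values were 94.4, 60.8, 70.5, 71.5 and 62.5 in wildtype tumors and 50.8, 36.3, 53.4, 49.7 and 52.5 in gene trap tumors. All 5 gene trap tumors lay below the lowest wildtype tumor, and the means were 72.0 ± 13.4 and 48.5 ± 6.98 (SD, n = 5 each). The log2 fold change was -0.55 (SE 0.18, 95% interval -0.95 to -0.16; limma p = 0.0097, adjusted p = 0.9997; exact two-sided permutation p = 0.00794). That permutation p is the smallest that the 252 arrangements of 5 and 5 tumors allow, for a gene picked from many.

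*Pcdhb15* (ENSMUSG00000047033) had values of 74.3, 49.3, 74.3, 69.1 and 57.0 in wildtype tumors and 47.4, 47.0, 50.8, 44.0 and 40.5 in gene trap tumors. The groups overlapped by 1 tumor each, since gene trap replicate 3 exceeded wildtype replicate 2. The log2 fold change was -0.47 (SE 0.17, 95% interval -0.85 to -0.10; limma p = 0.0169, adjusted p = 0.9997; exact two-sided permutation p = 0.0159). *Pcdhb11* (ENSMUSG00000051486) was the third lowest of the beta genes, with 463, 253, 219, 380 and 177 in wildtype and 244, 201, 195, 179 and 256 in gene trap tumors. Here wildtype replicates 1 and 4 were far above the rest, and the log2 fold change of -0.39 (SE 0.24; exact permutation p = 0.222) did not pass.

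The count of beta genes with an unadjusted p under 0.05 depended on 1 tumor. Without wildtype replicate 5 it was 6, with *Pcdhb3* and *Pcdhb15* joined by *Pcdhb4*, *Pcdhb7*, *Pcdhb9* and *Pcdhb11* at log2 fold changes of -0.38, -0.41, -0.49 and -0.56. With all tumors these 4 genes had -0.29, -0.26, -0.33 and -0.39. Limma gave 0 members with an adjusted p under 0.05 without that tumor too. For that fit the share of all tested genes with an unadjusted p under 0.05 is not given here. The count of 6 thus has no background beside it. Wildtype replicate 5 had the lowest beta sum of all tumors (3002). *Pcdhb3* and *Pcdhb15* kept an unadjusted p under 0.05 with each of the 10 tumors left out in turn, at log2 fold changes of -0.61 to -0.45 and of -0.57 to -0.42. Both genes were picked from many for a small p in the same 10 tumors. These fits reuse most of those tumors and add no separate support. *Pcdhb17* (ENSMUSG00000046387), the most abundant beta gene, had 706, 444, 584, 705 and 371 in wildtype and 480, 597, 473, 489 and 553 in gene trap tumors. Its wildtype tumors spread both above and below all gene trap tumors, and the log2 fold change of -0.08 (SE 0.17; exact permutation p = 0.746) changed sign without wildtype replicate 1 or 4.

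Along the beta cluster, the difference was larger toward its alpha side. The 11 genes from *Pcdhb1* to *Pcdhb11* all had a log2 fold change below 0, with a median of -0.28, and the 11 genes from *Pcdhb12* to *Pcdhb22* had a median of -0.08, with 9 below 0. The exceptions were *Pcdhb20* at 0.08 and *Pcdhb21* at 0.05. The Spearman correlation between gene order and log2 fold change was 0.73 over the 22 genes. Level changed along the cluster too, with a correlation of 0.64 between order and mean level and of 0.50 between level and log2 fold change. Split by mean level, the 11 lower genes had a median of -0.28 and the 11 higher genes -0.09, close to the medians by position. Order and level were thus not separated here. The trend along the cluster was noticed after the values were seen, the genes come from the same 10 tumors, and it is given as a description. Without wildtype replicate 1 the medians by position were -0.20 and -0.01, and without wildtype replicate 4 they were -0.21 and 0.01.

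Markers of another cell type moved with the groups in the same direction as the beta genes. All 7 myoepithelial markers had a log2 fold change below 0, the median being -0.36, and 2 of them had an unadjusted limma p under 0.05. These were *Krt17* (-0.63, exact permutation p = 0.0714) and *Myh11* (-0.67, exact permutation p = 0.0635). Their summed level was 7242 to 9914 in wildtype and 5426 to 7208 in gene trap tumors, with no overlap and with none of the markers at 0. Gene trap replicate 4 had the lowest myoepithelial sum of all tumors (5426) and the lowest beta sum of the gene trap tumors (3187), and wildtype replicate 4 was next to the top in both (9406 and 4819). Wildtype replicate 2 had the highest myoepithelial sum (9914) and a beta sum of 3228, below most tumors. In bulk tumors fewer cells of a type and less RNA per cell cannot be told apart, and the part of the myoepithelial cells in the values of the beta genes was not tested. All 9 fibroblast markers were in the table, with a summed level of 40428 to 86507 in wildtype and 53338 to 122830 in gene trap tumors. The highest was that of gene trap replicate 1, the tumor that also held the highest gamma sum (6363), while wildtype replicate 4 had the lowest fibroblast sum (40428) and a gamma sum of 5890, and wildtype replicate 5 was next to the top in fibroblast markers (86507) with a gamma sum of 5480. Their part in the gamma values was not tested either.

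**Figure D5:**
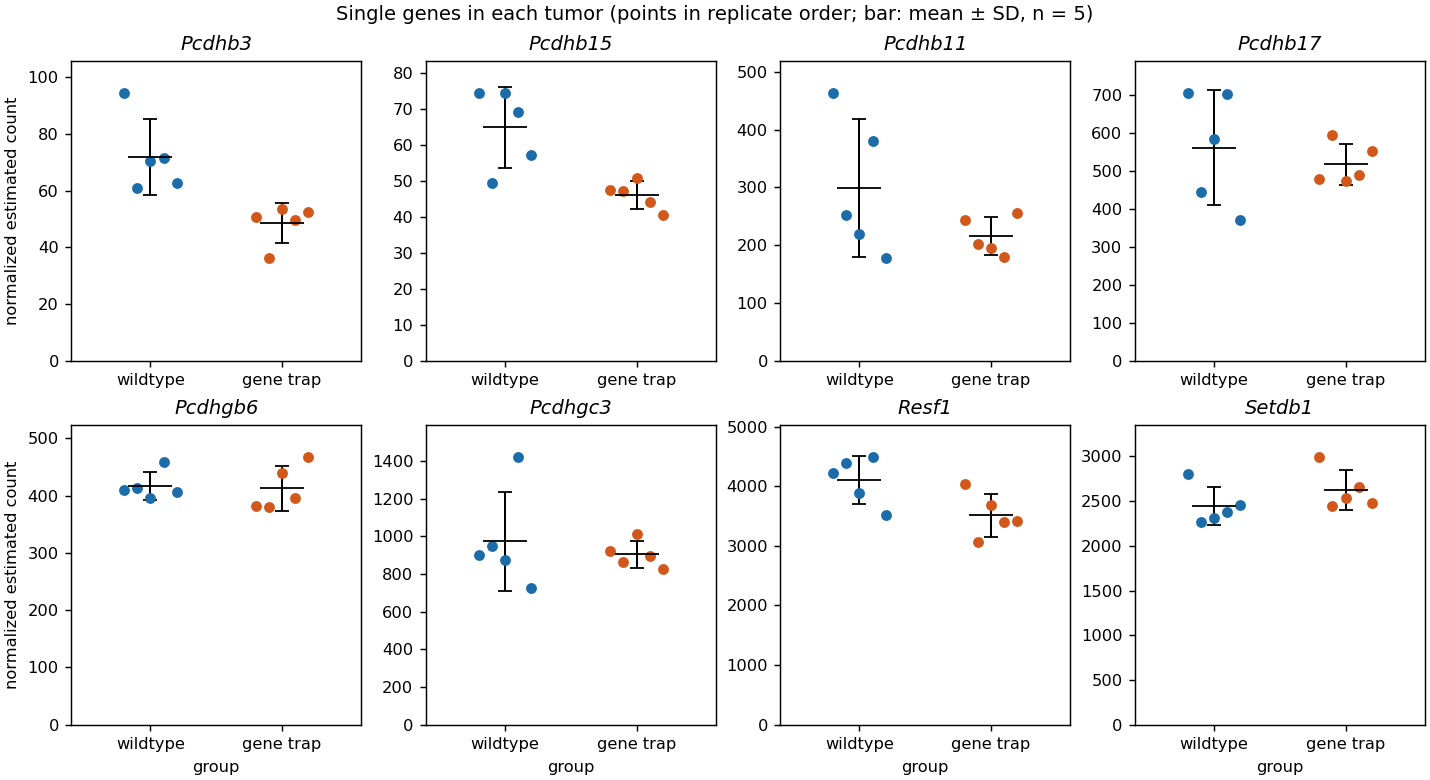
Normalized estimated count (y axis, from 0) of 6 members, *Resf1* and *Setdb1* in each wildtype (blue) and gene trap (orange) tumor, with a bar for the mean ± SD of 5 tumors. *Pcdhb3* is the only gene drawn whose groups do not overlap. *Pcdhgb6* varies least among the members drawn, and *Pcdhgc3* has 1 high wildtype tumor at 1420.

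The gamma cluster holds A-type and B-type genes, named for the similarity of their large exons, and 3 C-type genes at its far end. The A-type genes had a median log2 fold change of 0.06 over 11 tested genes, and the B-type genes a median of 0.06 over 7. *Pcdhga6* (ENSMUSG00000103793), the most abundant A-type gene, had 316, 263, 267, 361 and 313 in wildtype and 384, 301, 331, 223 and 355 in gene trap tumors. Gene trap tumors held both the highest and the lowest value, and the log2 fold change was 0.06 (SE 0.15; exact permutation p = 0.738). *Pcdhga4* (ENSMUSG00000103677) had the highest log2 fold change of the gamma genes, 0.27 (SE 0.25; exact permutation p = 0.405), with 276, 112, 229, 227 and 217 in wildtype and 343, 170, 287, 253 and 213 in gene trap tumors. Wildtype replicate 2 lay far below the rest, and without it the log2 fold change was 0.06.

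*Pcdhgb6* (ENSMUSG00000103088), the most abundant B-type gene, had the narrowest 95% interval of the tested members. Its values were 409, 414, 395, 458 and 407 in wildtype and 381, 380, 439, 396 and 467 in gene trap tumors. Gene trap tumors held both the highest and the lowest value, and the log2 fold change of -0.02 had a 95% interval from -0.22 to 0.18 (exact permutation p = 0.841). *Pcdhgb8* is annotated as a polymorphic pseudogene in GENCODE M21 and had a log2 fold change of 0.06 (exact permutation p = 0.730).

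C-type genes differ from the others in that their promoters are not chosen at random in neurons. *Pcdhgc3* (ENSMUSG00000102918), whose protein can bind Axin1, was the most abundant member and gave 13.2% to 24.1% of the gamma sum. It had values of 901, 949, 873, 1420 and 725 in wildtype and 920, 864, 1010, 897 and 826 in gene trap tumors. Wildtype replicate 4 stood apart at the top, and the log2 fold change was -0.07 (SE 0.15, 95% interval -0.40 to 0.25; exact permutation p = 0.754), turning to 0.07 without that tumor. The antisense gene *BC037039*, which overlaps it, had a log2 fold change of 0.11.

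*Pcdhgc4* (ENSMUSG00000023036), known for its role in the survival of neurons, had 135, 98.7, 108, 127 and 115 in wildtype and 137, 140, 127, 123 and 90.7 in gene trap tumors, with a log2 fold change of 0.07 (SE 0.16; exact permutation p = 0.611). *Pcdhgc5* (ENSMUSG00000102543) had 110, 103, 90.8, 107 and 85.7 in wildtype and 156, 125, 141, 95.5 and 73.2 in gene trap tumors, with a log2 fold change of 0.20 (SE 0.20; exact permutation p = 0.349). For both genes gene trap tumors held the highest and the lowest value, the lowest in gene trap replicate 5.

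As a cluster, the alpha genes had the lowest levels. *Pcdha11* (ENSMUSG00000007440), which lies nearest to the gene that RefSeq names *Pcdha10*, was the most abundant, with 27.3, 18.2, 27.4, 31.6 and 37.7 in wildtype and 19.4, 29.7, 30.4, 21.3 and 35.9 in gene trap tumors. The groups overlapped throughout, and the log2 fold change was -0.05 (95% interval -0.59 to 0.49; exact permutation p = 0.849). *Pcdha11* (ENSMUSG00000102206) had the highest log2 fold change of all tested members, 0.67 (SE 0.44, 95% interval -0.28 to 1.62; exact permutation p = 0.230), with 8.18, 3.46, 4.79, 21.9 and 9.03 in wildtype and 8.04, 19.5, 15.7, 8.36 and 17.98 in gene trap tumors. Wildtype replicate 4 held the highest value of all, and without it the log2 fold change was 1.01, with an unadjusted limma p under 0.05 and a lowest adjusted p of 0.978 over all alternatives.

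*Pcdha7* (ENSMUSG00000104318) followed with a log2 fold change of 0.44 (SE 0.42; exact permutation p = 0.349) and values of 5.44, 4.82, 13.6, 18.8 and 3.47 in wildtype and 7.87, 14.0, 12.3, 7.08 and 14.6 in gene trap tumors. The C-type gene *Pcdhac1* (ENSMUSG00000103255) had 10.4, 2.18, 11.4, 25.4 and 16.3 in wildtype and 5.03, 12.4, 11.9, 8.97 and 16.7 in gene trap tumors, with a log2 fold change of -0.03 (95% interval -1.13 to 1.07; exact permutation p = 0.968). Its interval spans more than 1 log2 unit in either direction. The alpha median of 0.14 turned negative without gene trap replicate 2 (-0.09), gene trap replicate 3 (-0.08) or wildtype replicate 2 (-0.05). Of 9 neuronal markers 3 were in the table, with a summed level of 21.7 to 89.9 in wildtype and 37.1 to 62.6 in gene trap tumors. The highest neuronal sum was that of wildtype replicate 4 (89.9), which also led the alpha cluster (155). Wildtype replicate 2 had a neuronal sum of 61.0, above most tumors, and the lowest alpha sum (41.2). Gene trap replicate 5 had the lowest neuronal sum of its group (37.1) and the highest alpha sum of its group (122). The part of nerve tissue in these values was not tested.

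Genes that act on the clusters did not pass the test. CTCF and cohesin, which join the chosen promoter to a distant enhancer, were covered by 11 genes, of which 8 had a log2 fold change below 0 and 3 above, with a median of -0.04 and 0 with an unadjusted limma p under 0.05. *Ctcf* had 2494, 2735, 2686, 2672 and 2633 in wildtype and 2723, 2359, 2624, 2858 and 2883 in gene trap tumors (log2 fold change 0.02, 95% interval -0.13 to 0.17; exact permutation p = 0.714). Of 23 genes of the SETDB1 pathway and of other silencing of the clusters, 19 were above 0 and 4 below, with a median of 0.05 and 0 with an unadjusted limma p under 0.05. *Setdb1* had 2805, 2272, 2311, 2383 and 2459 in wildtype and 2991, 2440, 2535, 2656 and 2482 in gene trap tumors (log2 fold change 0.10, 95% interval -0.08 to 0.27; exact permutation p = 0.238). *Smchd1* had 4355, 3590, 3355, 3609 and 3908 in wildtype and 4324, 3294, 4073, 4122 and 3914 in gene trap tumors (log2 fold change 0.07; exact permutation p = 0.476). In each of these genes the groups overlapped.

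Genes that lie beside and between the clusters, and so share their surroundings but not their promoters, showed a median log2 fold change of 0.01, with 4 of 12 below 0 and 0 with an unadjusted limma p under 0.05. *Taf7*, a subunit of the general transcription factor TFIID that lies between the beta and gamma clusters, had 881, 879, 943, 832 and 1054 in wildtype and 811, 1031, 778, 884 and 835 in gene trap tumors, with a log2 fold change of -0.08 (exact permutation p = 0.405). *Diaph1*, an actin regulator beyond the gamma cluster, had 1642, 1979, 1625, 2116 and 1697 in wildtype and 1808, 1580, 1862, 1759 and 1552 in gene trap tumors, with a log2 fold change of -0.08 (exact permutation p = 0.444). Neither gene separated the groups.

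The proteins that bind or cut clustered protocadherins, among them the kinases Fyn and Ptk2, the proteases ADAM10 and presenilin and the WAVE complex of actin assembly, were covered by 14 genes, with 11 below 0, a median of -0.04 and 0 with an unadjusted limma p under 0.05. Of 12 protocadherins outside the clusters, 10 were tested, with 5 on each side of 0 and a median of 0.02, and again 0 had an unadjusted limma p under 0.05. Their most negative value was that of *Pcdh11x* (-0.65, exact permutation p = 0.0873), chosen here after the values were seen. Germline genes, another group known to be silenced with SETDB1, were mostly not listed, with 3 of 11 in the table and 1 tested, the meiotic gene *Sycp1* (log2 fold change 0.14, exact permutation p = 0.524).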

How the data were processed

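Total RNA from mammary tumors was made into stranded libraries. What the authors deposited is a signal: counts estimated for each gene and already divided by median-ratio size factors. The submitters' processing notes name Partek, STAR (version 2.7.8a), DESeq2 and the build mm39, while the counter and annotation are not given in the sources used here. The values were fractions with 0 zeros, so the depth of a tumor is unknown and intervals based on it are left out. Totals per column ran from 31995078 to 42153593.

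The labels list 16 tumors, 8 per group. Of 16 columns, 10 were matched to tumors by name and 6 that matched no label were not used. A symbol was matched to 22899 (97.0%) of the IDs. A pseudocount of 1 was added before taking log2, and genes whose mean reached 10 entered a limma fit (limma 3.58.1 in R 4.3.3; empirical Bayes with a mean-variance trend, Benjamini-Hochberg adjustment over all genes tested). On this scale the change of low genes is understated. Exact permutation p-values are two-sided, for the difference of mean log2 values over all arrangements of the tumors. The fit was tested on simulated data drawn with the spread of each gene, with 200 genes changed by a known fold. At an adjusted p under 0.05 it recovered 53 of 200 genes changed 1.5-fold. It recovered 128 of 200 changed 2-fold and 194 of 200 changed 4-fold. Changes of 1.5-fold or less would thus mostly be missed. The simulation changed 200 genes at once, so recovery when only a few genes change was not examined. Exons, lengths, shared bases and gene order came from GENCODE M21, whose build differs from mm39, and no coordinates or sequences are given. Plots were made in Python 3.11.15 with matplotlib 3.10.9.

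The members and the lists (CTCF and cohesin, SETDB1 pathway, nonclustered protocadherins, partners, neighbours without *Relch*, which GENCODE M21 places on another chromosome, germline genes and cell type markers) were chosen with earlier results of these data known. Members given in every tumor were the most abundant of each class, all C-type genes, the 3 largest differences in each direction and those with an unadjusted p under 0.05. Other genes given were *Resf1*, *Setdb1*, *Ctcf*, *Smchd1*, *Taf7*, *Diaph1* and any gene of the pathway lists with an unadjusted p under 0.05, and further examples were chosen after their values were seen. Marker lists not described with the members had medians from -0.48 (adipocyte, 3 of 6 genes in the table) to 0.05 (skeletal muscle, 4 of 6), with 0.01 for epithelial, -0.08 for endothelial and for macrophage, 0.04 for pericyte, 0.09 for fibroblast and -0.14 for lymphocyte genes (5 of 8), and 1 marker list is not reported here. Alternatives were a block for the replicate number, omission of each tumor, other pseudocounts and filters, equal totals, quantile normalization, no variance trend and weights per tumor.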

Additional observations from a re-analysis of the deposited data

Results flagged for a closer look

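*Pcdhb3* in gene trap replicate 2 stood apart from its group. Its value there was 36.3, whereas the remaining gene trap tumors ranged from 49.7 to 53.4. A gap of this size was found in 1 of 46 groups of 5 tumors examined (23 measures in 2 groups), where chance gives about 1 in 20. Gene trap replicate 2 was also the tumor farthest out on the leading principal component. Without it the log2 fold change of *Pcdhb3* was -0.45, and its unadjusted limma p remained under 0.05.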

How the results depend on the processing

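Under 19 alternatives, limma gave 0 members and 0 genes of the pathway lists with an adjusted p under 0.05. The count of members with an unadjusted p under 0.05 was 2 in all 9 alternatives that kept every tumor. With a tumor left out it was 2 to 6, the 6 without wildtype replicate 5. Shares of all tested genes under these alternatives are not given here. The count of beta genes below 0 was 16 to 21, the 16 also with a mean of at least 50, where fewer genes were tested. With a tumor left out, the median log2 fold change was -0.13 to 0.02 for all members, -0.27 to -0.08 for beta, -0.01 to 0.12 for gamma and -0.09 to 0.39 for alpha genes. *Resf1* ranged from -0.28 to -0.17. Signs turned for members near 0. *Pcdhac1* was 0.057 with quantile normalization and *Pcdhgb6* 0.0050 with weights per tumor, and the cause was not tested. With a tumor left out, *Pcdha11* (ENSMUSG00000007440) ranged from -0.20 to 0.055, *Pcdhac1* from -0.50 to 0.27, *Pcdhb17* from -0.21 to 0.016, *Pcdhga6* from -0.017 to 0.18, *Pcdhgb6* from -0.063 to 0.017 and *Pcdhgc3* from -0.17 to 0.072. A mean of at least 50 left no alpha gene, so it gave no alpha value, and *Pcdha7* fell under the filter in 5 of the fits with a tumor left out.

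Tumors with the same replicate number came from different animals, and their deviations correlated at -0.16 to 0.15, so the numbers were not taken as pairs. With the replicate block the counts were 0 and 2, the medians were the same, and *Pcdhb3* and *Pcdhb15* were the members with an unadjusted p under 0.05 in both fits. No scaling moved the median of all genes by more than 0.03. The alternatives for the beta genes by position and for the summed levels were chosen after seeing the data. The depth of each tumor is unknown.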
